A study of Drosophila melanogaster with 4 samples.

Results

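HP1a clusters on the 6 placed heterochromatic scaffolds of the FlyBase r5 genome were described. A cluster is a region that the authors listed as significantly enriched for HP1a. The clusters were the enriched rows of the combined replicate set that lie on 2LHet, 2RHet, 3LHet, 3RHet, XHet and YHet, and they were chosen by sequence name alone. They numbered 427 of the 5583 enriched clusters of the combined set, and they held 7.49 Mb of the 29.99 Mb that the set covers. The 4 autosomal scaffolds carried 375 of them, XHet carried 25 and YHet carried 27.

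HP1a is a chromodomain protein that binds histone H3 methylated on lysine 9 and is a defining component of fly heterochromatin. Pericentric heterochromatin is rich in transposable elements and simple repeats, and its assembled pieces in r5 are kept as scaffolds that are assigned to a chromosome arm without being joined to it. The Y chromosome is heterochromatic along nearly its whole length and is carried by males. In this study, heads were sieved from mixed adults of the wild type Oregon-R (Oregon-R-modENCODE) raised in population cages. Their formaldehyde-treated chromatin was precipitated with wa191, an antibody against HP1a. The labels do not give the sex of the flies, and nothing in them says whether the replicates came from separate cages, so the spread between the 2 ChIP libraries may be technical. Each ChIP library had its own input library, whose reads were not analysed here. There was 1 tissue, 1 genotype and 1 antibody, so the values below compare scaffolds with each other and replicate 1 with replicate 2, without a test between conditions.

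Replicate 1 listed 444 clusters on the 6 scaffolds and replicate 2 listed 634, with a larger number in replicate 2 on each of the 6. The lists hold a start, an end and a score for each region and no read counts, so the depth is unknown. The scale of the score is not stated, so scores were compared between scaffolds within a list, and a difference in score between the replicates was read only against the same difference on other scaffolds. The replicates stood furthest apart on YHet, and each value there is given for both libraries. A base outside the clusters may lack HP1a or may have had too few reads for a cluster to be listed. It may also be an assembly gap or repeated sequence to which reads could not be assigned, and these cannot be told apart here. The share of males is not given. How many copies of X and Y sequence the libraries held relative to autosomal sequence is therefore unknown.

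The first question was how much of each scaffold was covered. HP1a clusters covered 78.1% of the autosomal scaffolds in replicate 1 and 73.3% in replicate 2 (mean 75.7% ± 3.42, SD, n = 2). The most covered was 3LHet, at 85.1% and 79.3%, and the least covered was 2LHet, at 70.0% and 64.3%. Between them lay 3RHet, at 79.0% and 73.3%, and 2RHet, at 72.9% and 69.5%. Replicate 1 covered more than replicate 2 on each of the 4. XHet was covered to 47.3% and 51.3%, below each of the 4 autosomal scaffolds in both libraries. YHet was covered to 70.5% in replicate 1, next to 2LHet and below the other autosomal scaffolds, and to 50.7% in replicate 2, next to XHet (SD 14.0, n = 2). The autosomal scaffolds exceeded XHet by 26.4 ± 6.19 percentage points (SD, n = 2), more than the spread between the libraries. They exceeded YHet by 15.1 ± 10.6 points (SD, n = 2), with 7.64 points in replicate 1 and 22.6 in replicate 2. In the combined set the coverage of XHet was 71.2% and that of YHet was 71.5%, against 81.3% on the autosomal scaffolds together. The gap to XHet thus shrank to 10.0 points, and it did not hold for each autosomal scaffold. In that set 2LHet was covered to 71.98%, close to XHet and YHet. Further above them lay 2RHet at 76.05%, 3RHet at 82.7% and 3LHet at 87.9%. Of the combined-set bases of XHet, 20.4% lay in clusters of neither replicate, against 3.19% on the autosomal scaffolds and 2.52% on YHet.

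Long bare stretches held much of the uncovered autosomal sequence. There were 30 stretches of at least 10 kb that neither replicate covered, and these held 1069 kb, or 58.5% of the autosomal bases outside both replicates. The combined set had clusters in parts of some of them, up to 43.9% of the stretch from 1068532 to 1085203 on 3RHet. On 2RHet, 11 such stretches held 569 kb, or 66.1% of all its bases outside both replicates. On 3LHet, 7 stretches held 129 kb, or 35.9%. When the bases of these stretches were set aside, a step chosen after the values were seen, the coverage of the autosomal scaffolds lay between 88.1% and 89.6% in replicate 1 and between 81.7% and 84.1% in replicate 2. This step raises coverage by construction wherever a stretch is removed. Measured in the same way, XHet rose to 55.8% and 60.4% and stayed below the autosomal scaffolds. YHet had 0 such stretches and kept its 70.5% and 50.7%, and the autosomal excess over YHet was 25.7 points on average in place of 15.1.

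**Figure D1:**
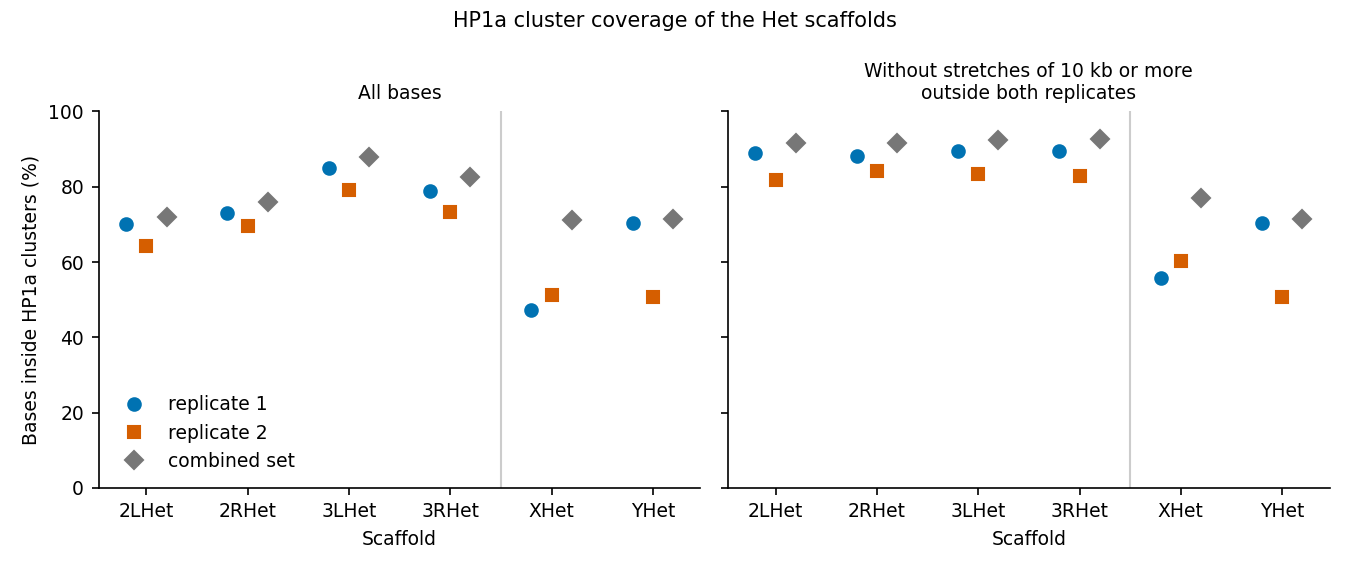
Share of bases inside HP1a clusters (percent) on each Het scaffold, for replicate 1, replicate 2 and the combined set, over all bases (left) and without stretches of 10 kb or more outside both replicates (right). Each symbol is 1 list. On the right the autosomal scaffolds lie within 88.1% to 89.6% in replicate 1, and XHet and YHet lie below them.

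On 2RHet, 114 kb from 2647306 to 2761468 lay outside the clusters of both replicates, and the combined set covered 0.890% of it. Further stretches of 104 kb (2457452 to 2561102) and 95.7 kb (1158377 to 1254078) lay on the same scaffold. On 3RHet the longest was 73.7 kb, from 447177 to 520914. On 2LHet it was 57.4 kb, from 62720 to 120107, which is 15.6% of that scaffold. On 3LHet it was 46.7 kb, from 2328423 to 2375166. XHet ended in a bare stretch of 17.2 kb from 186953 to its last base, of which the combined set covered 48.5%. The longest stretch on YHet was 8.09 kb, from 234903 to 242993.

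The 32 stretches of at least 10 kb on all 6 scaffolds had 63 edges inside the scaffolds. The nearest clusters of the replicates ended within 200 bp of each other at 30 of these edges, with a median distance of 211 bp. At 12 edges they lay more than 2000 bp apart. The 114 kb stretch was bounded most sharply of the 3 on 2RHet, with distances of 246 and 6 bp at its edges. At the 104 kb stretch they were 827 and 5044 bp, and at the 95.7 kb stretch 13347 and 79 bp. At the longest stretch of 2LHet they were 89 and 175 bp, and at that of 3LHet 75 and 311 bp.

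In bins of 50 kb, 15 of the 66 bins of 2RHet were covered to at least 90% by both replicates, and 8 were covered to less than 25% by both. On 3LHet 14 of 52 bins were that dense and 0 were that bare, on 3RHet the counts were 13 and 1 of 51, and on 2LHet 1 and 1 of 8. Neither XHet, with 5 bins, nor YHet, with 7, had a bin covered to 90% by both replicates. Taken over all bases, 72.3% of the autosomal scaffolds lay in clusters of both replicates, 5.81% in replicate 1 alone, 0.966% in replicate 2 alone and 20.9% in neither.

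Between the bare stretches the autosomal scaffolds were filled by long clusters. Of their 375 combined-set clusters, 123 were 20 kb or longer, and these made up 76.8% of the clustered bases. All 123 were met by both replicates, and each was covered to at least 82.1% by replicate 1 and to at least 76.8% by replicate 2. At the other end, 51 clusters under 2 kb made up 1.09% of the clustered bases, and 2 of these 51 were met by both replicates. The scores of the clusters of 20 kb or longer ran from 1.06 to 2.88 with a median of 2.18. Those of the clusters under 2 kb ran from 0.22 to 3.68 with a median of 1.09. Across the 375 clusters, length and score had a Spearman's rho of 0.32. It was 0.18 over the 401 clusters of replicate 1 and 0.49 over the 570 of replicate 2, as a description of clusters that share 1 library.

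The longest cluster of all lay on 2RHet from 1871058 to 1996588, a span of 126 kb with a score of 2.18. Replicate 1 had it as 1 cluster over 97.9% of its length, and replicate 2 as 4 clusters over 99.3%. The next on 2RHet were 97.1 kb long (113060 to 210162, score 2.50) and 87.3 kb long (3001326 to 3088604, score 2.33). On 3LHet the longest ran for 122 kb from 734712 to 856388 with a score of 2.18, split into 4 clusters in replicate 1 and 5 in replicate 2. It was followed by clusters of 99.99 kb (340894 to 440878, score 2.41) and 77.3 kb (1991438 to 2068688, score 2.42). In the 99.99 kb region replicate 1 had 3 clusters and replicate 2 had 1.

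On 3RHet the longest cluster ran for 117 kb from 1866070 to 1983256 with a score of 2.38 and was covered to 99.98% by replicate 1 and to 98.4% by replicate 2. Clusters of 94.3 kb (2268714 to 2363052, score 2.00) and 92.7 kb (1496216 to 1588870, score 2.36) followed. The short scaffold 2LHet had 16 clusters, and its 3 longest held a large part of it. They were 59.5 kb (150142 to 209668, score 2.53), 50.6 kb (269088 to 319700, score 1.91) and 31.2 kb (334514 to 365734, score 2.41) long. The first took up 16.1% of 2LHet and was covered to 99.8% by replicate 1 and to 99.3% by replicate 2. All 12 of these longest autosomal clusters were met by both replicates.

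The 2 highest-scored clusters were not met by both replicates on 2RHet and 3RHet, unlike those on 2LHet and 3LHet. On 2LHet the top scores were 2.95 (44116 to 54410) and 2.57 (54866 to 62718), in clusters of 10.3 kb and 7.85 kb that both replicates covered to at least 93.5%. On 3LHet they were 3.00 (1510080 to 1514798) and 2.95 (2208312 to 2217320), in clusters of 4.72 kb and 9.01 kb that both replicates covered to at least 95.3%. On 2RHet the top clusters were 2001 bp (1102436 to 1104436, score 3.68) and 2013 bp (2336722 to 2338734, score 3.51) long, and replicate 1 alone met them. The score of 3.51 was shared with a cluster of 2003 bp (3221360 to 3223362) that neither replicate met. A longer cluster of 2RHet (8.30 kb, 894456 to 902756) scored 3.05 and was covered to 97.4% by replicate 1 and to 98.2% by replicate 2. On 3RHet they were 2137 bp (1070340 to 1072476, score 3.90) and 1001 bp (1075314 to 1076314, score 3.68) long, and neither replicate had a cluster in them. In the whole combined set, 14 clusters had the score of 3.68 and 6 had that of 3.90, and ties were ranked by start.

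XHet, of 204 kb, was covered over most of its length by short clusters with scores mostly below the autosomal median of 2.00. A pair of long ones lay near its high-coordinate end. The pair ran from 132366 to 152454 (20.1 kb, score 2.06) and from 154678 to 189606 (34.9 kb, score 2.20). Replicate 1 covered them to 97.8% and 91.8%, and replicate 2 to 96.2% and 90.4%. They held 37.9% of the clustered bases of XHet. The 20 clusters before them, among them the next longest (14.2 kb, 44904 to 59092, score 0.81), had a median score of 0.87, and 11 of the 20 scored below 1. Of these 20, 12 were met by both replicates. The 3 clusters after the pair were 1399 to 2287 bp long and were met by neither replicate, and they included the highest scores of the scaffold, 4.09 (197978 to 199958) and 2.55 (193136 to 195422).

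Both replicates gave the same course along XHet. On the low-coordinate side of the scaffold's midpoint, replicate 1 covered 33.7% with a median score of 1.00, and replicate 2 covered 41.4% with a median score of 1.01. On the high-coordinate side they covered 61.0% and 61.1%, with median scores of 1.88 and 1.54. The sides of other scaffolds differed too. On 2LHet the low- and high-coordinate sides were covered to 62.6% and 77.4% in replicate 1 and to 57.9% and 70.7% in replicate 2. On YHet they were covered to 80.6% and 60.3% in replicate 1 and to 59.4% and 42.0% in replicate 2. The median scores of the sides of 3RHet were 2.01 and 2.27 in replicate 1, and closer together in replicate 2, at 1.72 and 1.80. On 2RHet they were 2.35 and 2.32 in replicate 1, and 1.92 and 1.93 in replicate 2. Inside the 14 clusters of XHet that both replicates met, the scores of replicate 1 exceeded those of replicate 2 by a median of 0.03. On the autosomal scaffolds this excess was 0.23 over 295 clusters.

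YHet, of 347 kb, was covered in longer clusters by replicate 1 and in shorter pieces of the same regions by replicate 2. Replicate 1 listed 25 clusters there with a median length of 8586 bp, and replicate 2 listed 44 with a median of 3428.5 bp. The longest was 22.9 kb in replicate 1 and 9.91 kb in replicate 2. Each of these 44 overlapped replicate 1, and 40 of them lay wholly inside a single longer cluster. Of the 25 clusters of replicate 1, 11 held 2 or more clusters of replicate 2, with up to 6 in a single cluster. The bases covered by replicate 1 alone made up 20.2% of YHet, and those covered by replicate 2 alone made up 0.390%.

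The 3 longest combined-set clusters of YHet show this splitting. The region from 22644 to 45448 (22.8 kb, score 2.16) was covered to 99.9% by 1 cluster of replicate 1 and to 73.1% by 3 clusters of replicate 2. The region from 51272 to 74058 (22.8 kb, score 1.69) was covered to 95.9% by 1 cluster and to 74.97% by 6 clusters. The region from 133892 to 155104 (21.2 kb, score 1.93) was covered to 99.5% by 1 cluster and to 77.5% by 2 clusters. Of the 24 clusters of YHet that both replicates met, replicate 1 covered 22 to at least 90% and replicate 2 covered 5 to that level. On the autosomal scaffolds the counts were 250 and 170 of 295. The highest scores on YHet were 3.42, in a 1035 bp cluster near its end (345518 to 346552) that neither replicate had, and 2.25, in a 10.8 kb cluster (262384 to 273162) that both had.

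The scores on YHet lay at a different place in the lists of the replicates. In replicate 1 the median score was 2.24 on YHet and 2.23 on the autosomal scaffolds. In replicate 2 it was 1.44 on YHet and 1.89 on the autosomal scaffolds. The autosomal median minus that of YHet was therefore -0.0035 in replicate 1 and 0.46 in replicate 2. Its mean of 0.23 ± 0.33 (SD, n = 2) was smaller than its spread. Inside the 24 clusters met by both, replicate 1 scored higher in 22, by a median of 0.61, against a median of 0.23 on the autosomal scaffolds. The difference between the libraries on YHet was not tested.

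**Figure D2:**
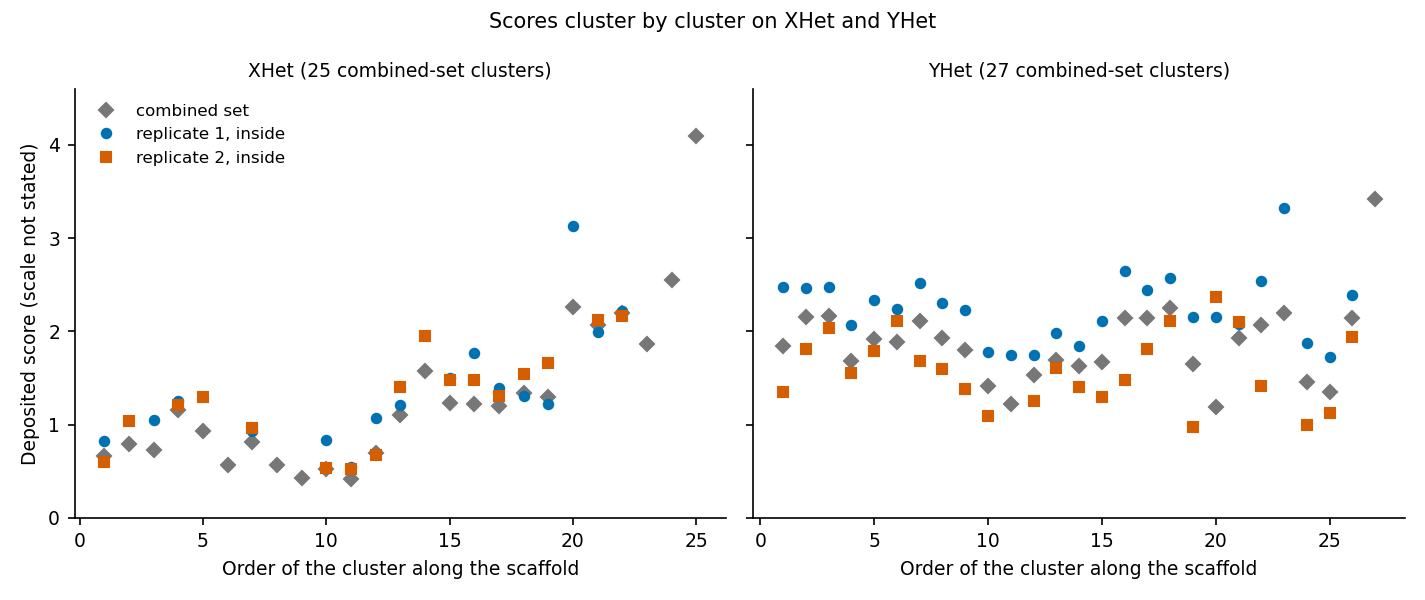
Deposited score of each combined-set cluster in its order along XHet (left) and YHet (right), with the mean score, weighted by length, of the clusters of each replicate inside it. Scores on XHet are mostly lower in the first clusters than in the pair of long clusters, where they are near 2 and both replicates lie together. On YHet replicate 1 lies above replicate 2 in 22 of the 24 clusters that both met.

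The second question was how autosomal clusters compared with those of XHet and YHet in length, score and gaps. Autosomal clusters had a median length of 9730 bp in replicate 1 and 6549.5 bp in replicate 2. Those of XHet were shorter, at 2087.5 bp and 2766.5 bp, and the difference was 5713 ± 2729 bp (SD, n = 2). The difference from YHet was 2132.5 ± 1398 bp (SD, n = 2), with 1144 bp in replicate 1 and 3121 bp in replicate 2. Both differences exceeded their spread over 2 libraries, and merging clusters under 1000 bp apart raised them to 11445 bp and 7483.5 bp. The length above which clusters held 50% of the clustered bases was 30.2 kb and 19.8 kb on the autosomal scaffolds, 19.9 kb and 7.54 kb on XHet, and 12.7 kb and 4.76 kb on YHet, in replicates 1 and 2.

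**Figure D3:**
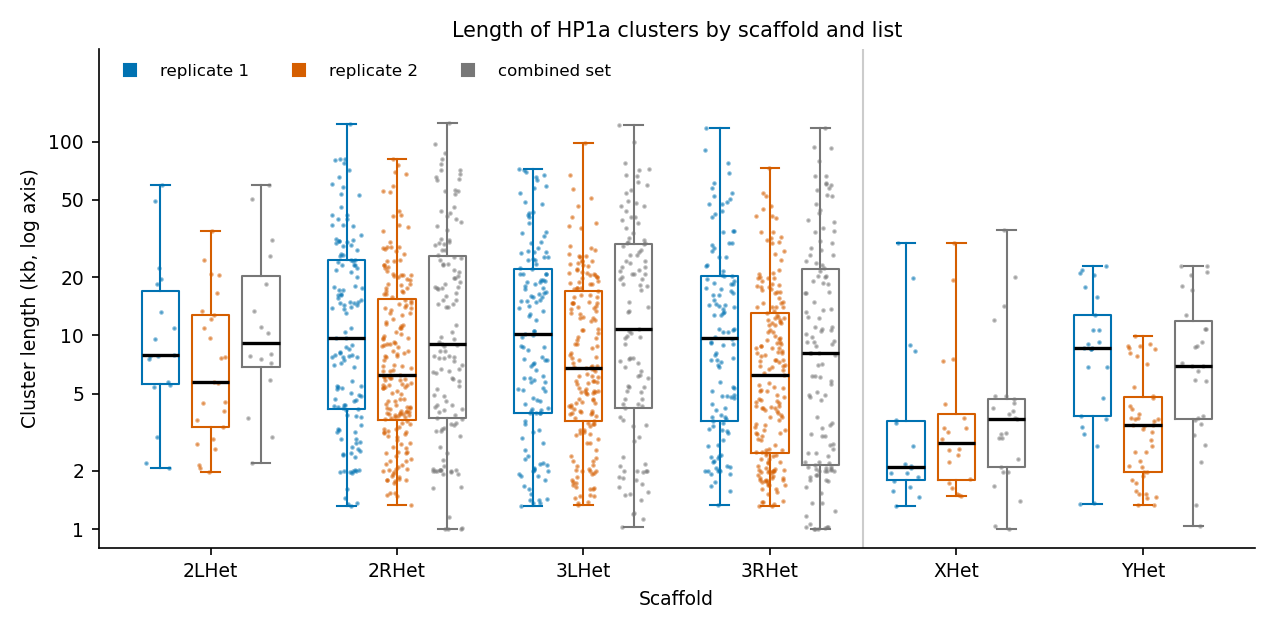
Length of every HP1a cluster (kb, log axis) by scaffold for replicate 1, replicate 2 and the combined set. Points are clusters, boxes span the quartiles with the median as a black line, and whiskers reach the extremes. The autosomal medians lie between 5732 and 10725 bp, those of XHet between 2087.5 and 3695 bp, and the YHet median falls from 8586 bp in replicate 1 to 3428.5 bp in replicate 2.

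Scores were lower on XHet than on the autosomal scaffolds in each list. The median was 1.28 in replicate 1 and 1.29 in replicate 2, below the autosomal 2.23 and 1.89 by 0.78 ± 0.25 (SD, n = 2). In the combined set it was 1.16 against 2.00. Scores below 1 were held by 27.8% and 30.0% of the clusters of XHet in replicates 1 and 2, and by 2.49% and 10.2% of the autosomal clusters. On YHet the corresponding shares were 0% and 13.6%. Among the autosomal scaffolds, 3RHet had the lowest median in both replicates, 2.10 and 1.76, and in the combined set, 1.92. After clusters scoring under their list's median were dropped, which removes low scores by construction, the difference from XHet was 0.38.

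**Figure D4:**
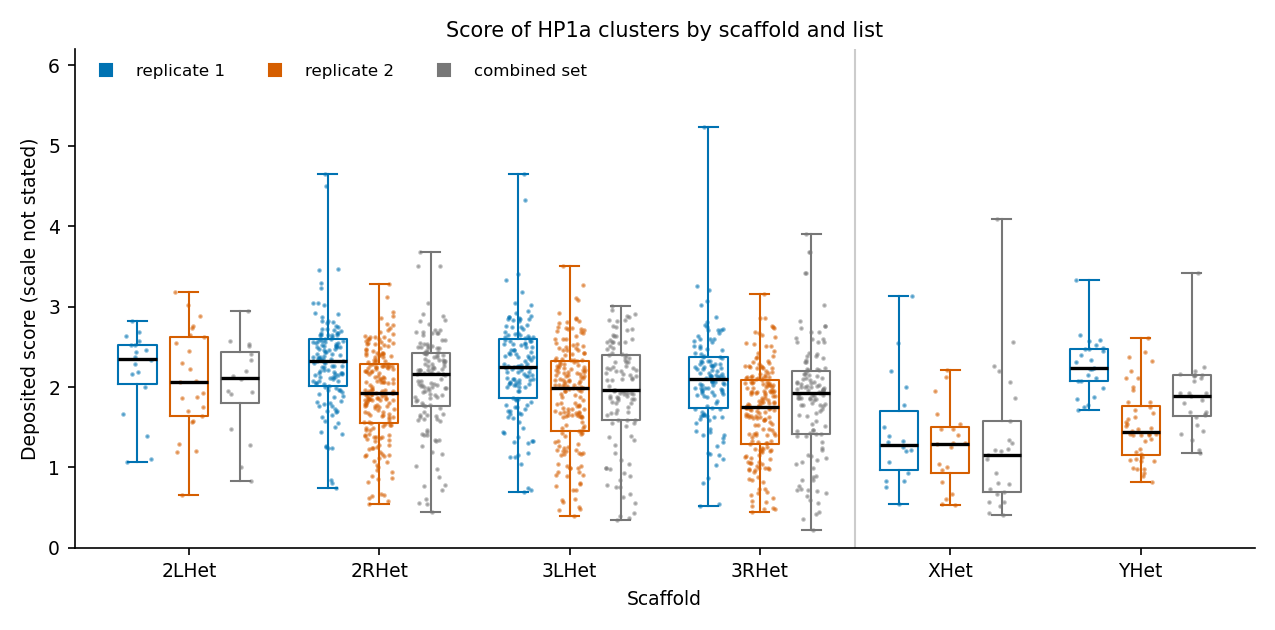
Deposited score of every HP1a cluster by scaffold for replicate 1, replicate 2 and the combined set, with points, boxes and whiskers for clusters, quartiles and extremes. The XHet medians of 1.28, 1.29 and 1.16 lie below all autosomal medians, and the YHet median is 2.24 in replicate 1 and 1.44 in replicate 2.

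Gaps between neighbouring clusters were short on the autosomal scaffolds, apart from the long bare stretches. Replicate 1 had a median gap of 1667 bp there, and replicate 2 had 1399.5 bp. The median was 3408 and 3236 bp on XHet, longer than the autosomal value by 1789 bp on average, and 4549 and 3402 bp on YHet, longer by 2442 bp on average. The SDs of these differences over the 2 libraries were 67.5 and 622 bp, so both exceeded the spread. The excess on XHet was 762 bp in the combined set, 1119 bp without clusters scoring under their list's median and 1153.5 bp with clusters under 1000 bp apart merged. With only clusters of at least 2000 bp it was 4318.5 ± 4595 bp (SD, n = 2), smaller than its spread. Gaps under 1 kb made up 36.3% and 41.3% of the autosomal gaps in replicates 1 and 2. The share was 17.6% and 21.1% on XHet, and 16.7% and 37.2% on YHet. Of the uncovered autosomal bases, 57.1% in replicate 1 and 52.5% in replicate 2 lay in gaps of at least 10 kb. On XHet these shares were 41.5% and 14.3%, and on YHet 0% and 25.1%.

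The third question was how many of the combined-set clusters both replicates contained. A cluster counted as met when at least 1 bp of it lay in a cluster of the replicate. Of the 427 clusters, 333 were met by both replicates, 41 by replicate 1 alone, 8 by replicate 2 alone and 45 by neither. The share met by both was 78.0%, against 45.8% of all 5583 enriched clusters and 43.2% of the 5156 clusters outside these scaffolds. It was 67.0% on chromosome 4 and 70.6% on U, which are among the latter. The share met by neither was 29.6% over all enriched clusters. The combined set was made from both libraries, so these shares describe lists that depend on each other and are given without a test. High coverage and long clusters by themselves favour a share met in at least 1 bp. Replicates 1 and 2 covered 77.1% and 71.9% of the 6 scaffolds, and the median combined-set cluster there was 8121 bp long. By bases, clusters met by both replicates made up 97.6% of the clustered sequence. This was 97.9% on the autosomal scaffolds, 98.2% on YHet and 81.0% on XHet.

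The share met by both was 78.7% on the autosomal scaffolds (295 of 375, 95% Wilson interval 74.2% to 82.5%). On XHet it was 56.0% (14 of 25, interval 37.1% to 73.3%), and on YHet it was 88.9% (24 of 27, interval 71.9% to 96.1%). The intervals cover counting error over clusters only and ignore that neighbouring clusters share their libraries. XHet was also less covered by the replicates. Its combined-set clusters were shorter, at a median of 3695 bp against 9219 bp on the autosomal scaffolds, and the share depends on both. On 2LHet all 16 clusters were met by both replicates. On 3RHet 89 of 122 were, and 20 were met by neither. On XHet 6 of 25 were met by neither, a larger share than on 3RHet. When each replicate had to cover at least 50% of the cluster, the shares were 75.5% on the autosomal scaffolds, 44.0% on XHet and 85.2% on YHet, against 40.0% of all enriched clusters. The 2 filters that follow were applied to the replicate lists too, so they also removed replicate clusters that could meet a cluster. Without clusters scoring under their list's median the share on XHet was 25.0%. These medians were 0.62 in the combined set, 1.35 in replicate 1 and 1.09 in replicate 2. With only clusters of at least 2000 bp in each list the share on XHet was 36.8%. Against the unfiltered replicates, 11 of the 17 clusters of 2 to 20 kb on XHet were met by both. So were the 2 of 20 kb or longer.

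**Figure D5:**
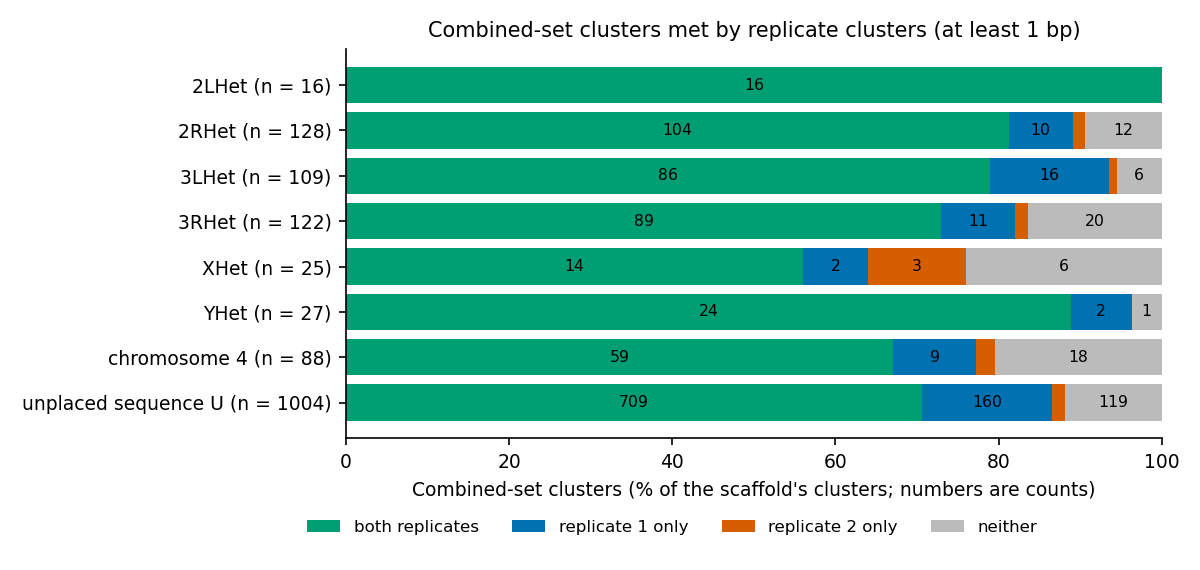
Share of the combined-set clusters of each scaffold that were met by clusters of both replicates, of 1 replicate or of neither, with counts inside the wider segments of the bars and chromosome 4 and the unplaced sequence U for comparison. XHet has the lowest share met by both, 56.0%, and 2LHet has all 16 clusters met by both.

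The 45 clusters that neither replicate had were short, and their scores ran from low to high. Their lengths ran from 1001 to 3683 bp with a median of 1797 bp, and 17 of them were shorter than 1301 bp, the shortest cluster in the replicate lists. Their scores ran from 0.37 to 4.09 with a median of 1.99, close to the median of 2.02 of the clusters met by both. Of the 45 scores, 37 recurred exactly in another cluster of the combined set. This held for 14 of the 333 clusters met by both, 13 of the 41 met by replicate 1 alone and 4 of the 8 met by replicate 2 alone. Among all 427 clusters it held for 68. Length differed along with support, with medians of 13655 bp for both, 1989 bp for replicate 1 alone and 2380 bp for replicate 2 alone. Of the 13 clusters on the Het scaffolds with a score of at least 3, 8 were met by neither replicate, 3 by replicate 1 alone and 2 by both, and 12 of the 13 were under 5 kb long. A run of 5 clusters lay on 3RHet between 1070340 and 1082568. Each was 1001 to 2137 bp long with a score of 3.42 to 3.90, and the run stood inside a stretch of 16.7 kb that neither replicate covered. This run was chosen after its values were seen.

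Seen from the replicates, nearly every autosomal cluster of replicate 2 was met by replicate 1 in at least 1 bp. Of the 570 clusters, 564 were met, and the 6 others were at most 2014 bp long. The share of 98.9% was near that on chromosome 4 (105 of 107) and on U (1122 of 1159). Replicate 1 covered 78.1% of the autosomal scaffolds, which by itself favours a high share. In the opposite direction 363 of 401 clusters were met, against 45 of 53 on chromosome 4 and 879 of 1065 on U. On XHet the shares were alike in both directions, 15 of 18 and 17 of 20. Replicate 2 also had more pieces on the autosomal scaffolds. Of the 375 combined clusters, 130 held 2 or more clusters of replicate 2 and 81 held 2 or more of replicate 1, with up to 8 and 4 in a single cluster.

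Where a combined cluster held exactly 1 cluster of each replicate, their edges could be compared directly. On the autosomal scaffolds this was so for 149 clusters. The median distance between the edges of the replicates was 191 bp, and 153 of 298 edges lay within 200 bp. On XHet the median was 450 bp over 11 clusters, with 5 of 22 edges within 200 bp. On YHet it was 697 bp over 13 clusters, with 6 of 26 edges within 200 bp, and the cluster of replicate 1 was the longer in all 13.

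Chromosome 4 and the unplaced sequence U were set beside the Het scaffolds for comparison. Chromosome 4 was covered about as densely as the autosomal Het scaffolds, to 81.2% and 74.7% in replicates 1 and 2, but its clusters had lower scores. Their median was 1.58 and 1.29, and 41.5% and 37.4% scored below 1. Length and score were also more closely tied there, with a Spearman's rho of 0.79 over 88 combined-set clusters against 0.32 on the autosomal scaffolds. On U the median scores of 2.29 and 1.93 were near the autosomal values, but the clusters were shorter, at 3737 and 3042 bp. Replicate 1 covered more than replicate 2 on U, 65.6% against 54.0%, as it did on chromosome 4 and on each Het scaffold except XHet. Bases of replicate 1 alone made up 14.7% of U, between the autosomal 5.81% and the 20.2% of YHet. These comparisons rest on 2 libraries and were not tested.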

How the data were processed

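Lists of regions from 2 HP1a ChIP libraries and a combined list were used. Bowtie 0.12.7 is named by the submitters' processing notes, and coordinates are on FlyBase r5 per the file headers. Not given in the sources used here are the caller, its threshold, the handling of multiply mapping reads and the combining step. The deposited score is the authors' own value, and its scale is likewise unknown. Minimum cluster length differed, at 1301 bp in each replicate and 1001 bp in the combined list.

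Enriched rows on sequences ending in Het were taken. Regions past the end of a scaffold (2 in each list) and 1 start at position 0 in replicate 1 were clipped. The 2 depleted regions of the combined set lay elsewhere. Coverage, lengths, gaps between neighbouring clusters, overlaps and scores were computed with Python 3.11.15, pandas 2.3.3 and scipy 1.17.1, and checked on simulated lists. With 1 condition and 2 libraries no test was run, and mean ± SD is given over the libraries. Regions named were the 3 longest and 2 highest-scored clusters and the longest bare stretch of each scaffold, and others were chosen after their values were seen. The scaffolds and measures were chosen with earlier results of these data known. No genes were placed, as no r5 annotation was used here. Alternatives were a score threshold, merging, a minimum length, the combined set, each replicate alone, equal weight for scaffolds and a 50% overlap.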

Additional observations from a re-analysis of the deposited data

How the results depend on the processing

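Of 66 alternative values for 14 results, 47 stayed within 1 SD of the replicates (shares: within the Wilson interval, counts: within 1.5 times) and 19 moved. These limits are wide for some results and narrow for others, so the tally does not measure stability. The coverage difference from YHet stayed within its limit at 9.77 points against 15.1. The gap difference from XHet moved at -1719 bp against -1789 bp. A further 16 values use each replicate alone. These always lie within 1 SD of a mean of 2 and say nothing on stability, and 1 of them changed sign. Leaving out the long bare stretches and leaving out clusters met by neither replicate were chosen after seeing the data. The cause of the changes was not tested beyond what each alternative does by construction. The median score difference between the autosomal scaffolds and YHet, 0.23, changed sign without replicate 2, to -0.0035, and was 0.46 without replicate 1. Without clusters scoring under their list's median, the coverage difference from XHet was 39.3 points, the score difference 0.38, the gap difference -1119 bp and the share of XHet clusters met by both 25.0%. With clusters under 1000 bp apart merged, the length differences were 11445 bp from XHet and 7483.5 bp from YHet, the gap difference from XHet was -1153.5 bp, 204 autosomal clusters remained in place of 375, and the shares met by both were 87.3% on the autosomal scaffolds and 100% on YHet. With only clusters of at least 2000 bp, the gap differences were -4318.5 bp from XHet and -3474 bp from YHet, and the shares met by both were 86.1% on the autosomal scaffolds and 36.8% on XHet. The score and length filters also shortened the replicate lists, so the shares under them are not shares met by the unfiltered replicates. The combined set gave a coverage difference from XHet of 10.0 points and gap differences of -762 and -3237 bp. Equal weight for the 4 autosomal scaffolds gave a gap difference from XHet of -1719 bp. Without the long bare stretches the coverage difference from YHet was 25.7 points. Each replicate alone gave coverage differences of 22.0 to 30.7 points from XHet and 7.64 to 22.6 from YHet, length differences of 3783 to 7642.5 bp and 1144 to 3121 bp, a score difference from XHet of 0.60 to 0.95, and gap differences of -1836.5 to -1741 bp and -2882 to -2002.5 bp. No paired analysis was possible because no list of regions was analysed for the inputs, the group that shares replicate numbers with the ChIP libraries. The differences between scaffolds were taken within each library. XHet and YHet hold 25 and 27 clusters, so their medians rest on few regions. The depth is unknown, and a region outside the clusters does not show that HP1a was absent.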
